A study of Mus musculus with 4 samples.

Results

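The potassium channel genes of the mouse are described here in CD11b-positive brain cells. They were chosen by name: every protein-coding row whose Ensembl identifier maps in GENCODE M21 (GRCm38) to a symbol starting with Kcn. The rule found 94 genes among 21974 protein-coding genes and 55471 rows in all. By role, 67 encode subunits that form a potassium pore, 10 encode silent Kv subunits that join other subunits but form no channel alone, and 17 encode auxiliary or regulatory proteins.

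The series holds 4 RNA-seq libraries in 1 group. Mice aged 10 to 13 weeks received PLX5622, which blocks CSF1R, the receptor microglia need to survive, for 7 days, and the drug was then withheld for 10 days, which allows microglia to repopulate the brain. CD11b-positive cells, a gate that holds microglia and other myeloid cells, were then bound to magnetic beads and collected, and poly(A) RNA was sequenced. An untreated group was not analysed here, and nothing below measures what the drug did. The libraries carry the submitters' numbers 1 to 4, and whether each came from a separate animal is not stated in the labels. The p-values below therefore speak only of how far these 4 samples differ, and part of that may be technical.

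Potassium channels set the resting membrane potential and return excited membranes to rest. In microglia, the 2-pore-domain channel THIK-1 carries a resting potassium current that is linked to process surveillance and, through potassium loss from the cell, to the NLRP3 inflammasome. Inward rectifiers, voltage-gated Kv1 channels and calcium-activated channels appear in microglia in other states. The choroid plexus epithelium, which secretes cerebrospinal fluid, handles potassium through Kir7.1 and through channels that carry KCNE subunits. Smooth muscle and pericytes use KATP, Kv and BK channels to set vessel tone, and astrocytes buffer extracellular potassium through Kir4.1.

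The pore is shown first, because it is a feature that most pore-forming members share and that the selection by name did not use. In each pore loop a threonine, 1 further residue and a glycine-tyrosine-glycine signature line the selectivity filter. Some channels, K2P and others, carry phenylalanine in place of the tyrosine, and some K2P channels carry leucine. Each stretch below is 30 bases of coding sequence from GENCODE M21, 5′ to 3′, with the codons of the glycine-aromatic-glycine (or glycine-leucine-glycine) signature in capitals. The members shown are the most abundant pore genes, among them Kcnj13 and Kcnk1, whose levels differed between libraries. Kcnh1 and Kcnh2, pore genes that also differed, held no match to the pattern searched and are not shown.
Kcnk6, first pore loop: gtcaccaccgtgGGCTATGGCtacacgacc
Kcnk6, second pore loop: ctgtccaccattGGCCTAGGGgactacgtg
Kcnk13, first pore loop: gtttctaccataGGGTTTGGGatgacaaca
Kcnk12, first pore loop: gtgtcgaccataGGTTTCGGCatgacaaca
Kcnk12, second pore loop: ttcagcaccatcGGCTTCGGGgacctggtg
Kcnk1, first pore loop: ctctccaccacaGGCTATGGCcacacggtg
Kcnk1, second pore loop: ctgagcaccatcGGCCTGGGGgactatgtt
Kcnd1: atgaccacacttGGGTATGGAgatatggta
Kcnj2: cagacaaccattGGCTATGGTttcaggtgt
Kcnj10: cagaccaccatcGGCTATGGCttccgctac
Kcnj13: caacttacaattGGTTATGGTaccatgttt

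A search of the coding frame for GGNTANGGN, GGNTTNGGN or GGNCTNGGN after an ACN codon and 1 further codon found a match in 56 of 67 pore genes, 10 of 10 silent Kv genes and 0 of 17 auxiliary genes. All 14 K2P genes held 2 or more matches and no other member did. K2P channels are defined by a pair of pore loops in 1 subunit. Kcnk12 has the phenylalanine codon in both loops and its close relative Kcnk13 has it in the first loop shown, while Kcnk6 and Kcnk1 have the tyrosine codon in the first loop and the leucine codon in the second. Of the EAG, ERG and ELK genes, 1 of 8 held the pattern, and of the SK and IK genes 1 of 4, Kcnn4. A missing match says only that these letters are not in that frame.

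Most potassium channel genes were low in these libraries, with 58 of 94 at a mean below 1 CPM. Levels are in CPM, the counts of the gene per 1000000 counts of the library. At 1 CPM or more in every library, called detected here, were 22 of 94 members (23.4%), against 53.6% of all protein-coding genes. A further 20 reached 1 CPM in some libraries, and 52 stayed below it in all 4. No count was found for 8 members, Kcna10, Kcnh5, Kcnh8, Kcnj6, Kcnk15, Kcnk16, Kcnmb3 and Kcns2. A floor of 3 counts corresponds to 0.119 to 0.132 CPM, and 31 members had a mean below 0.132 CPM. Detected members comprised 19 of 67 pore genes, 0 of 10 silent Kv genes and 3 of 17 auxiliary genes.

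Detection differed by family. Inward rectifiers gave 5 of 15 genes, K2P channels 4 of 14, and the Kv1, Kv4, EAG/ERG/ELK and large-conductance groups 2 each, of 8, 3, 8 and 4. No member of the KCNQ family (5 genes), of the Kv3 family (4 genes) or of the BK beta subunits (4 genes) was detected at that level. The 14 K2P genes summed to 558 ± 38.5 CPM (SD, n = 4), the 15 Kir genes to 178 ± 37.9 CPM and the 3 Kv4 genes to 106 ± 9.75 CPM.

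**Figure D1:**
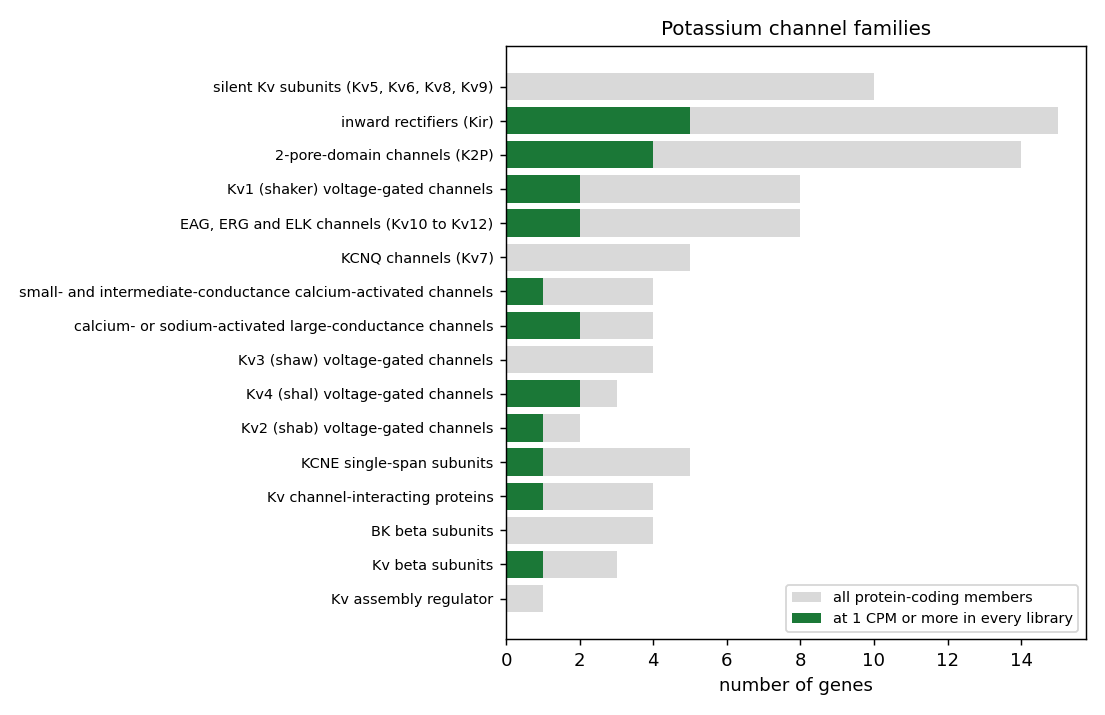
Number of protein-coding potassium channel genes in each family (grey bars, horizontal axis in genes) and the number at 1 CPM or more in every library (green bars). Detected genes were most numerous among inward rectifiers, with 5 of 15, and K2P channels, with 4 of 14, and none of the 10 silent Kv genes was detected.

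1 gene held nearly as much signal as all the others together. Kcnk6 encodes TWIK-2, a K2P channel described as the potassium efflux path that accompanies P2X7 activation in macrophages. It lies at chr7:29221926-29232515 on the minus strand (GRCm38). Its level was 400.2, 459, 521 and 449.7 CPM in libraries 1 to 4, a mean of 458 ± 49.8 CPM. Library 3 was the highest and library 1 the lowest, 1.30-fold apart. All 94 members summed to 901, 1072, 941 and 1103 CPM, of which Kcnk6 held 44.4, 42.8, 55.4 and 40.8%. Without it, the sum was 501, 613, 419.6 and 653 CPM, so library 3 was the lowest once Kcnk6 was left out.

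Levels of different genes were compared per kilobase of merged exons. On that scale Kcnk6 led with 110.2 ± 12.0 CPM per kb. Kcnj13 (44.7), Kcne2 (34.7), Kcnd1 (19.3), Kcnk13 (18.0), Kcnj2 (14.2), Kcnk1 (12.0), Kcnk12 (6.23) and Kcnj10 (4.66 CPM per kb) followed. The first 9 places were the same with the length of the longest transcript. Several neighbours in this order were closer than their spread: Kcnj13 and Kcne2 had SDs of 24.6 and 21.02 CPM per kb, and Kcnd1 and Kcnk13 had 1.87 and 1.67.

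**Figure D2:**
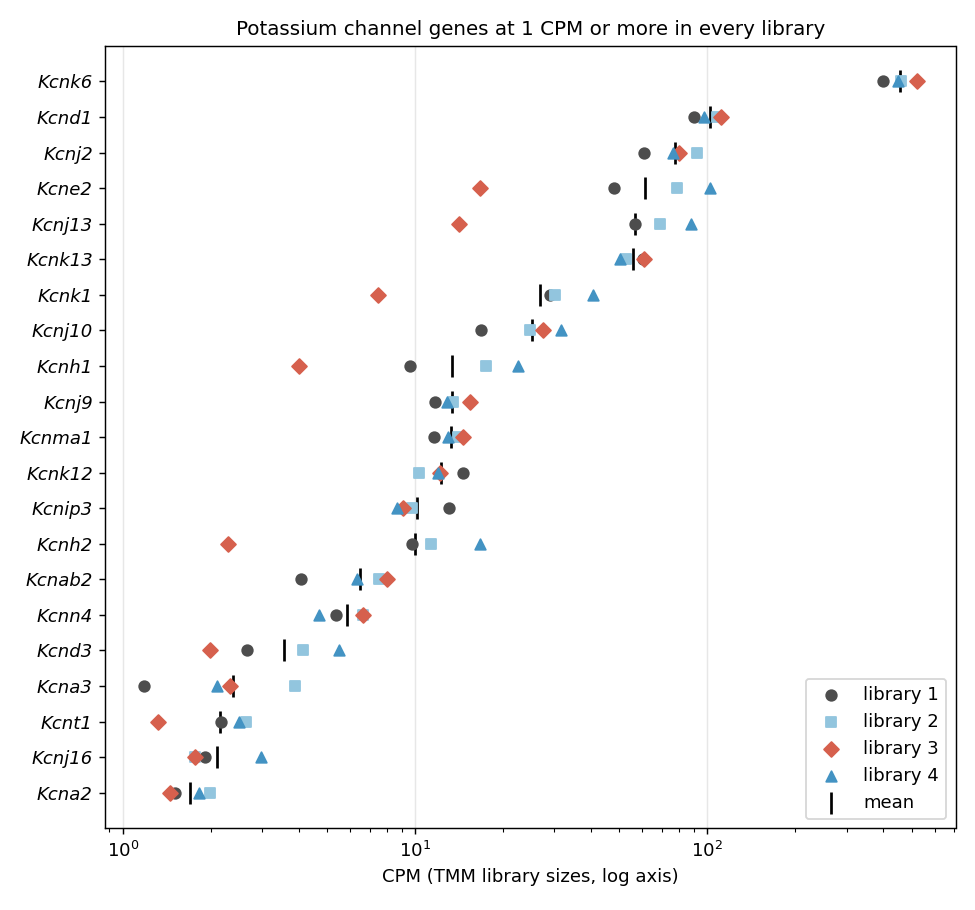
CPM of the detected members, 1 of which is left out, in libraries 1 to 4 (coloured symbols, 1 per library) with their mean (black bar), on a logarithmic horizontal axis. Kcnk6 lies at 400.2 to 521 CPM and Kcnd1 at 89.95 to 112 CPM with overlapping symbols, while library 3 stands to the left of the others for Kcne2, Kcnj13, Kcnk1, Kcnh1 and Kcnh2.

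None of the 5 channels known from microglia passed the test of a difference between libraries, and library 3 was the lowest for none of them. Of all genes tested 3.28% passed, and library 3 was the lowest for 27.4% of detected protein-coding genes. Counts over 5 genes are too few to be set apart from these shares. Kcnk13 encodes THIK-1, the tonically open channel that P2Y12 signalling potentiates, and lies at chr12:99964499-100062682 on the plus strand. It was at 60.0, 52.8, 60.6 and 50.2 CPM, with a highest library 1.21 times the lowest. Kcnk12 encodes THIK-2, a relative that forms little current alone, and was at 14.6, 10.3, 12.2 and 12.0 CPM. Library 1 was the highest for Kcnk12, and libraries 3 and 4 were nearly equal.

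Kcnj2 encodes Kir2.1, the classical inward rectifier, at chr11:111066164-111076821 on the plus strand. It was at 60.9, 92.1, 79.8 and 76.2 CPM, lowest in library 1. Kcnn4 encodes the calcium-activated channel KCa3.1 and was at 5.38, 6.65, 6.65 and 4.68 CPM. Kcna3 encodes Kv1.3, a channel studied in activated microglia and T cells, and was the lowest of this class at 1.18, 3.89, 2.33 and 2.10 CPM. Its highest library was 3.29 times its lowest, the widest spread in the class.

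These 5 channels (Kcnk6, Kcnk13, Kcnj2, Kcnn4 and Kcna3) summed to 528, 615, 671 and 583 CPM. Library 3 was 0.22 higher than the mean of the others on the log2 scale, and 0.11 higher without Kcnk6, which carried most of the sum. The highest library of the full sum was 1.27 times the lowest. The 6 microglia markers, P2ry12, Tmem119, Cx3cr1, Csf1r and Sall1 among them, had a median of 0.19 on the same measure. Their summed level was 28337 to 34452 CPM.

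Several detected members outside that class had as narrow a range. Kcnd1 encodes Kv4.1, a voltage-gated channel with fast inactivation, at chrX:7822289-7838280 on the plus strand, and was the second most abundant member by CPM. It was at 89.95, 108, 112 and 97.6 CPM. Its highest library was 1.24 times its lowest, and libraries 2 and 3 were the high pair. Kcnma1, the BK pore subunit, was at 11.6, 14.1, 14.6 and 13.0 CPM. Kcnj9, the G-protein-gated rectifier Kir3.3 known from neurons, was at 11.7, 13.5, 15.4 and 12.9 CPM. Kcnd1, Kcnma1 and Kcnj9 shared their order with Kcnk6: highest in library 3 and lowest in library 1.

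Of the auxiliary genes, Kcnab2 encodes a Kv beta subunit and was at 4.08, 7.52, 8.01 and 6.35 CPM. Kcnip3 encodes the calcium-binding protein KChIP3, also called DREAM or calsenilin, which joins Kv4 channels and binds DNA. It was at 13.1, 9.76, 9.11 and 8.69 CPM, highest in library 1. The 5 border macrophage markers, among them Mrc1, Lyve1 and Pf4, were all highest in library 1 too, with a summed level of 567 CPM there against 230 to 278 CPM in the others, and 3 of the 5 passed the test. Their part in the level of Kcnip3 was not tested. The other known Kv4 partners Dpp6 and Dpp10 were at 0.573 ± 0.211 and 0.0944 ± 0.0550 CPM, below detection.

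Of the 37 members that passed the filter, which asks for about 10 counts in every library, 5 differed between libraries, 13.5%, against 3.28% of all 14112 genes tested. The test was edgeR's negative binomial goodness of fit to a single mean with Benjamini-Hochberg adjustment at 0.05. All 5 were lowest in library 3, and 2.83% of the tested genes both differed and were lowest there. They were Kcne2, Kcnj13, Kcnk1, Kcnh1 and Kcnh2. At an unadjusted p under 0.05, 10 members and 1350 genes passed. The quasi-likelihood variance test, which takes the spread of each gene against its own trend, called 0 members and 0 genes, with 5 members and 658 genes at an unadjusted p under 0.05.

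Kcne2 encodes a single-span subunit that pairs with KCNQ1 and other pores in the choroid plexus and stomach, at chr16:92292389-92298129 on the plus strand. Its level was 48.0, 78.5, 16.6 and 102 CPM. Library 3 was below every other library, by 4.58-fold against their mean (log2 −2.195, adjusted p = 2.35e-06 by edgeR's goodness of fit). Without library 3 the mean was 76.2 ± 27.2 CPM and the adjusted p was 0.317. Its neighbour Kcne1, 47.9 kb away, was at 0.00992 CPM, from a single count in 1 library.

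Kcnj13 encodes Kir7.1, an inward rectifier of the apical membrane of choroid plexus and retinal pigment epithelium, at chr1:87386363-87394729 on the minus strand. Its level was 56.4, 68.9, 14.1 and 87.8 CPM. Library 3 was again below all others, by 5.03-fold (log2 −2.33, adjusted p = 5.95e-06 by edgeR's goodness of fit). Exons of Gigyf2 on the opposite strand cover 49.1% of its exonic length, and the strand setting of the counting is not given in the sources used here, so its level is uncertain. Gigyf2 itself was at 79.3, 89.3, 94.3 and 84.2 CPM, highest in library 3, the reverse of Kcnj13.

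Kcnk1 encodes TWIK-1, a K2P channel of astrocytes, kidney and other epithelia, at chr8:125995170-126030685 on the plus strand. Its level was 28.9, 30.0, 7.48 and 40.6 CPM, 4.43-fold lower in library 3 than the mean of the others (log2 −2.15, adjusted p = 0.00290 by edgeR's goodness of fit). The antisense gene that covers 8.01% of its exons had no counts.

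A pair of EAG-type channels had the same order at lower levels. Kcnh1, the neuronal channel EAG1, lies at chr1:192190774-192510159 on the plus strand and was at 9.59, 17.5, 4.01 and 22.5 CPM (log2 −2.04, adjusted p = 0.0365). Kcnh2, the ERG1 channel known from heart repolarization, lies at chr5:24319589-24351604 on the minus strand and was at 9.79, 11.4, 2.29 and 16.6 CPM (log2 −2.46, adjusted p = 0.0474, both by edgeR's goodness of fit). They were the only EAG, ERG or ELK genes detected, and in both library 3 was the lowest and library 4 the highest.

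With library 3 left out, none of the 5 was past the threshold. Of the 41 members tested then, 0 were past it, against 0.716% of the 14802 genes tested. At an unadjusted p under 0.05 by the same test were 5 of these members and 1007 of these genes. Without library 2, Kcnh1 and Kcnh2 had adjusted p of 0.178 and 0.138, and without library 4 Kcnk1, Kcnh1 and Kcnh2 had 0.0665, 0.363 and 0.304 by edgeR's goodness of fit. Kcne2 and Kcnj13 stayed past it without library 1, 2 or 4. No other detected member passed the test.

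The share of members lowest in library 3 was read against all genes. Library 3 was the lowest for 10 of the 22 detected members (45.5%) and for 27.4% of the detected protein-coding genes. It was the highest for 6, against 29.3%. The detected members split rather than shifting together: their median of log2 library 3 over the others was −0.12, beside 0.0038 for all detected genes, yet 7 of 22 were more than 2-fold lower there, against 11.3%. Requiring 1 CPM in every library removes genes that are low in library 3. Of the 36 members with a mean of 1 CPM or more, 22 were lowest in library 3, against 31.2% of protein-coding genes with such a mean, and 17 were more than 2-fold lower, against 15.8%.

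**Figure D3:**
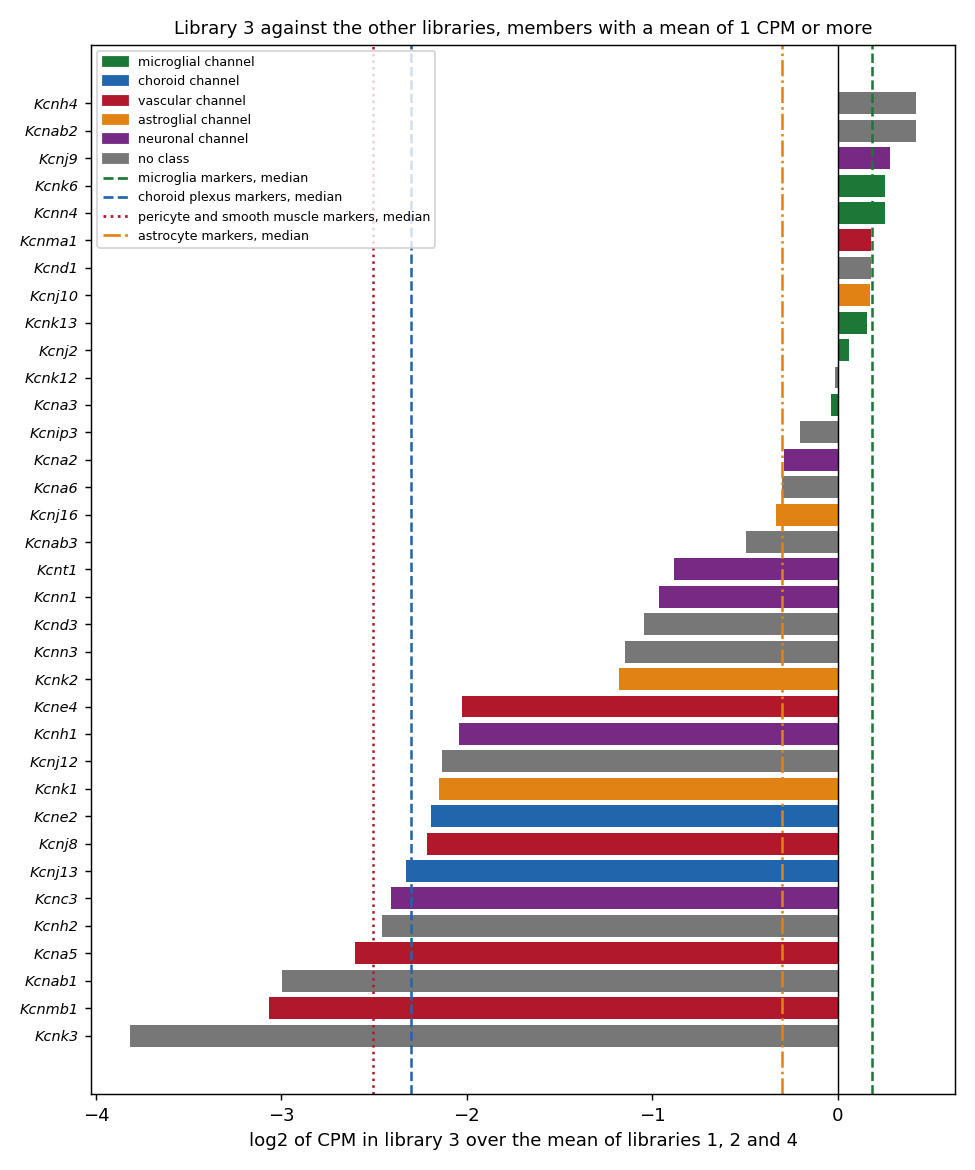
Log2 of the CPM in library 3 over the mean of libraries 1, 2 and 4 (horizontal axis) for members with a mean of 1 CPM or more, 1 of which is left out, coloured by the cell class each channel is known from. Vertical lines give the medians of the marker lists, 0.19 for microglia and −2.30 for choroid plexus epithelium, and the bars run from −3.81 for Kcnk3 to 0.42 for Kcnab2 and Kcnh4.

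Markers of other cells moved with library 3. The 6 choroid plexus markers Ttr, Folr1, Kl, Enpp2, Clic6 and Otx2 were all lowest there, with a median log2 of −2.30 and a summed level of 3313 CPM against 15914 to 22216 in the others. The 6 endothelial markers (median −2.21, 155 against 636 to 769 CPM) and the 6 pericyte and smooth muscle markers (−2.51, 95.7 against 422 to 649.6 CPM) were likewise all lowest there. The 3 erythroid markers had the lowest median of the lists, −2.69 (25.1 against 52.4 to 288 CPM), and all 3 passed the test. Of the 5 oligodendrocyte markers 1, Mbp, was lowest in library 3 and passed the test (log2 −1.71). None of the 18 choroid plexus, endothelial and mural markers was at 0 in any library. Astrocyte markers had a median of −0.30, with 3 of 6 lowest in library 3. Neuron markers had a median of −0.79, with 3 of 6 lowest and 2 highest in library 3, and 0 passed the test. The part of these cells in the results for single channels was not tested, and in bulk RNA fewer cells of a type cannot be told apart from less RNA per cell.

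Members that were low in library 3 differed in which library was highest. From high to low, the order was library 4, 2, 1, 3 for Kcne2, Kcnj13, Kcnk1, Kcnh1, Kcnh2 and Kcnd3, which are 6 of the 22 detected members, against 8.31% of detected protein-coding genes. Of detected genes lowest in library 3, 6 of 10 members and 978 of 3232 protein-coding genes had that order. Of the choroid plexus markers, 4 of 6 had that same order and all 6 were highest in library 4. All 12 endothelial and mural markers were highest in library 1 or 2. Among the 22 members with a mean of 1 CPM or more that were lowest in library 3, 13 were highest in library 4 and 9 in library 1 or 2. For the 10 detected members lowest there, these numbers were 7 and 3. For the 3232 detected protein-coding genes lowest there, they were 1369 and 1863. By rank, vascular channels were on each side: Kcna5 and Kcne4 were highest in library 2, whereas Kcnj8 and Kcnmb1 were highest in library 4. Kcnj8 had the order of Kcne2, with 51 and 56 counts in libraries 2 and 4. Kcnmb1 had 97, 91 and 108 counts in libraries 1, 2 and 4. Kcne4 had 79 and 76 counts in libraries 1 and 2. The ranks of these 3 genes among libraries 1, 2 and 4 therefore rest on small gaps. Kcnab1 and Kcnk3 were highest in library 1. Orders over 4 libraries are a description and were not tested.

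The channels known from the choroid plexus were Kcnj13, Kcne2 and Kcnq1. Kcnq1, the pore partner of KCNE2, was low at 0.612, 1.64, 0.440 and 1.03 CPM, a mean of 0.228 CPM per kb beside 34.7 for Kcne2. Library 3 was the lowest for all 3, and the class summed to 105, 149, 31.2 and 191 CPM, 4.75-fold lower in library 3 than the mean of the others (log2 −2.25). As a percentage of the summed microglial channels, the class was 19.9, 24.3, 4.65 and 32.8.

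Vascular channels were lower in level. Kcnj8 encodes Kir6.1, the KATP pore of mural cells, and was at 1.71, 2.203, 0.440 and 2.22 CPM. Kcnmb1 encodes the smooth muscle BK beta subunit and was at 3.96, 3.93, 0.484 and 4.29 CPM. Library 3 was the lowest for both, and libraries 1, 2 and 4 were close together. Kcna5 (Kv1.5) was at 4.65, 5.49, 0.704 and 2.699 CPM. Kcne4, a regulatory subunit of Kv and KCNQ channels in arteries, was at 3.22, 3.28, 0.704 and 2.10 CPM. Library 3 was below every other library in each of these 4 genes, yet none passed the test, with adjusted p of 0.505, 0.130, 0.192 and 0.593 by edgeR's goodness of fit.

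Of the 6 genes of the class, 5 were tested. Kcnma1 was flat as given above and was the largest part of the sum. The class sum was 26.2, 30.7, 17.3 and 25.1 CPM (log2 −0.66 for library 3), and without Kcnma1 the log2 value was −2.45. Abcc9, the sulfonylurea receptor that pairs with Kir6.1, was at 4.12, 6.65, 2.33 and 6.51 CPM, and Abcc8, its counterpart for Kir6.2, totalled 3 counts over the 4 libraries.

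Astroglial channels gave opposite values within the class. Kcnj10 encodes Kir4.1 and was at 16.8, 24.7, 27.5 and 31.7 CPM, lowest in library 1. Its partner Kcnj16 (Kir5.1) was at 1.92, 1.77, 1.76 and 2.98 CPM, lowest in library 3 by a small margin and highest in library 4. Kcnk1, given above, was low in library 3. Kcnk2 (TREK-1) was at 1.43, 1.21, 0.704 and 2.14 CPM, also lowest in library 3. The class sum was 49.0, 57.7, 37.5 and 77.5 CPM (log2 −0.71), and without Kcnk1 the log2 value turned to 0.086, a sum carried by Kcnj10. Library 3 was the lowest for 3 of the 4 genes. When the median over members of log2(CPM + 0.5) was taken in each library, library 3 minus the mean of the others was −0.92.

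The 25 channels known mainly from neurons had means from 0 to 13.4 CPM, led by Kcnh1 and Kcnj9, both given above. Of the class, 5 were detected and 1, Kcnh1, differed between libraries. The class sum was 37.4, 50.2, 30.2 and 58.0 CPM (log2 −0.69 for library 3). The 6 neuron markers summed to 15.9 to 27.5 CPM, and Rbfox3 and Syt1 were below detection. Among the detected neuronal genes, Kcnt1, a sodium-activated channel, and Kcna2, a Kv1 channel of axons, were at 2.15 ± 0.590 and 1.69 ± 0.255 CPM.

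**Figure D4:**
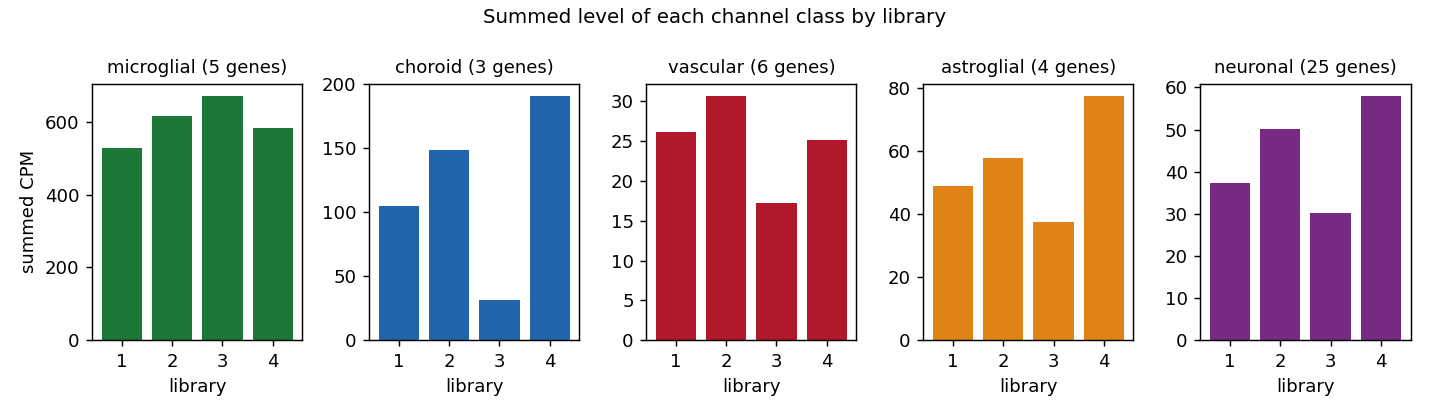
Summed CPM of the channels known from each cell class (vertical axes from 0, each panel with its own scale) in libraries 1 to 4 (horizontal axes). The microglial sum ranges from 528 CPM in library 1 to 671 in library 3, whereas the choroid sum falls to 31.2 CPM in library 3 and reaches 191 in library 4.

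Members without a class added to the low side in library 3. Kcnab1, a Kv beta subunit, was at 6.04, 4.23, 0.572 and 3.41 CPM (log2 −2.99, adjusted p = 0.110 by edgeR's goodness of fit). Kcnk3 (TASK-1), an acid-sensitive K2P channel, had 66, 61, 4 and 53 counts (log2 −3.81), the lowest log2 value of any member with a mean of 1 CPM or more, and was not tested, because the 4 counts of library 3 put it outside the filter. Kcnd3 (Kv4.3) was at 2.65, 4.15, 1.98 and 5.48 CPM. In each, library 3 was below every other library. Kcnh4, an ELK channel, was at 0.286, 1.55, 1.497 and 1.51 CPM and differed by having library 1 as its low library.

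Genes that work with these channels were taken from a list of 38, of which 26 were detected, 28 tested and 3 differed between libraries, against 3.28% of all genes tested. The sodium-potassium ATPase moves potassium into the cell, and its beta subunit Atp1b1 was at 125, 179, 39.8 and 252 CPM (log2 −2.22, adjusted p = 1.72e-07). It had the same order of libraries as Kcne2 and Kcnj13. Il1b, the cytokine matured by the NLRP3 inflammasome, was at 74.8, 143, 49.0 and 46.3 CPM (adjusted p = 0.00173, both by edgeR's goodness of fit). Il1b was high in library 2 and lowest in library 4, unlike any channel gene that differed.

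The other tested partners did not pass the test (adjusted p of 0.101 or more by edgeR's goodness of fit). Atp1b3, another beta subunit of the ATPase, was at 213 ± 29.1 CPM. Of the purinergic receptors upstream of microglial channels, P2ry12 was at 4262, 2816, 3116 and 2726 CPM, P2rx7 at 288 ± 35.0 and P2rx4 at 85.2 ± 14.8 CPM. Of the inflammasome genes downstream of potassium loss, Nlrp3 was at 121 ± 17.4 CPM and its kinase partner Nek7 at 207 ± 22.6 CPM. Slc12a2, the cotransporter NKCC1, was at 345 ± 49.5 CPM. Hcn2, a pore of the related cation channel family, was at 5.41 ± 0.963 CPM. Slc5a3, an inositol transporter reported to pair with KCNQ1 and KCNE2, was at 37.8, 52.8, 34.5 and 70.4 CPM, lowest in library 3 and highest in library 4.

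Several members lie close to each other on a chromosome. Kcnj9 and Kcnj10 lie 11.9 kb apart, at 13.4 ± 1.56 and 25.2 ± 6.28 CPM. Kcnj16 and Kcnj2 lie 38.2 kb apart at 2.11 and 77.3 CPM. Kcna3 and Kcna2 lie 63.1 kb apart at 2.38 and 1.69 CPM, and the next gene, Kcna10, had no counts. 2 members, Kcnk4 and Kcnj14, had under 90% unique 50-base windows in their exons, and neither was detected.

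Upstream sequence is shown for 1 steady microglial channel and for the pair of choroid channels that fell together in library 3. Each run is the 120 bases before the RefSeq start (GRCm38.p6), 5′ to 3′ on the gene's strand, with motif matches in capitals.
Kcnk13, chr12:99964379-99964498, plus strand: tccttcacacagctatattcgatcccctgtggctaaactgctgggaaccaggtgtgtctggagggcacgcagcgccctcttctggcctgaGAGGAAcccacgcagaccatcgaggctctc
Kcnj13, chr1:87394730-87394849, minus strand: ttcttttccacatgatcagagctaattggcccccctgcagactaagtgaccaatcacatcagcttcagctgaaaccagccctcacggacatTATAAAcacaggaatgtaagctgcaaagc
Kcne2, chr16:92292269-92292388, plus strand: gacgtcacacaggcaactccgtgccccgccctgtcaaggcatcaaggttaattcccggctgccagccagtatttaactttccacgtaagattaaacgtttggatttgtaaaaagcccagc

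The motifs searched on both strands were the PU.1 core GAGGAA, the OTX2 core TAATCC and the TATA box TATAAA, which do not overlap each other, in windows from 250 bases before to 50 after each start. RefSeq promoters were found for 69 of the 94 members, and 94 member windows were searched. The PU.1 core occurred in 28.7% of the member windows and in 28.3% of all 32851 windows. The OTX2 core occurred in 3.19% against 7.06%, and the TATA box in 5.32% against 13.6%. Kcnk13 holds the PU.1 core beginning 30 bases before its start, and Kcnj13 holds TATAAA beginning 29 bases before its start, while neither window of Kcne2 held any of the 3. Of the 5 genes that differed between libraries, 1 held the PU.1 core, 1 the TATA box and 0 the OTX2 core. A match is a description of the letters and not evidence of binding.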

How the data were processed

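Poly(A) RNA of CD11b-positive brain cells was sequenced in 4 libraries of 1 group. The authors deposited raw counts per Ensembl gene. They were made on GRCm38 with featureCounts 1.6.5 and STAR 2.7.2b, after bcl2fastq 2.20.0.422, per the submitters' processing notes. Not given in the sources used here are the annotation release, the strand setting and what was done with reads that match several places. For this reason, genes that overlap on opposite strands (26 members, 6 of them by over 10% of their exons) or share sequence are uncertain. Total counts were 23036202 to 24487418 per library. Floors of 3 counts cover counting error only, since reads are not independent molecules.

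Identifiers were matched to GENCODE M21 (55230 of 55471, with 241 unmatched rows kept in the totals), which gave symbols, biotypes, coordinates and merged exon lengths. CPM used TMM library sizes (edgeR 4.0.16, R 4.3.3). The TMM factors were 1.00, 1.01, 0.963 and 1.03. Genes kept by filterByExpr (14112) were tested with the negative binomial goodness of fit of a single mean (trended dispersion, biological coefficient of variation 26.6%), a chi-square on 3 degrees of freedom, adjusted by Benjamini-Hochberg over all of them. The script was tested on simulated counts. Alternatives were DESeq2 1.42.0 size factors and dispersion outliers, total counts, other filters, the quasi-likelihood variance test, scaling to microglial markers, and leaving out each library. Sequences came from GENCODE M21 transcripts and RefSeq.

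The members, cell class lists, markers and partners were chosen with earlier results of these data known, and the classes come from general knowledge of where each channel acts. Genes were named where detected, past the test, in a class list, or a detected partner, and others by range. Members with a mean of 1 CPM or more that were not detected, and low partners, were named after their values were seen. Values of a few single genes and 1 sequence are not reported here.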

Additional observations from a re-analysis of the deposited data

Results flagged for a closer look

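In 38 members (those with a mean of 1 CPM or more and the lower members of the 4 smaller cell classes) and 5 class sums, the gap between the extreme library and its nearest neighbour was set against the range of the 4 libraries (Dixon's criterion at the 95% level). Chance marks about 1 group in 20, and 3 were marked. Kcnmb1, the smooth muscle BK beta subunit, stood apart on the low side in library 3 at 0.484 CPM. Kcnj16 (Kir5.1) stood apart on the high side in library 4 at 2.98 CPM. Kcnh4, an ELK channel, stood apart on the low side in library 1 at 0.286 CPM.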

How the results depend on the processing

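The count of 5 members that differed between libraries was 5 with DESeq2 size factors, total counts or only genes at 1 CPM in every library. It was 3 without a filter (Kcne2, Kcnj13 and Kcnk1) and 0 with both the quasi-likelihood variance test and DESeq2's dispersion outliers, and ranged from 0 to 5 when a library was left out, with 0 without library 3 (5 members at an unadjusted p under 0.05 by edgeR, as with the quasi-likelihood test). Detected members numbered 22, and 36 by a mean of 1 CPM, with 22 to 34 when a library was left out and 34 without library 3. They numbered 32 at a cutoff of 0.5 CPM in every library and 16 at 2 CPM. Those lowest in library 3 rose from 10 to 22 by a mean of 1 CPM. The vascular value of −0.66 (log2, library 3 over the others) was −2.45 without Kcnma1. It was −1.75 from medians over members of log2(CPM + 0.5) in each library, as library 3 minus the mean of the others. The astroglial value of −0.71 turned to 0.086 without Kcnk1. The causes of these changes were not tested. Of the comparisons between settings for these summaries, 46 kept direction and size, where a count within 1.5-fold was taken as kept. For single genes, 219 comparisons kept their call or level, 17 lost the call and 5 levels moved by more than 1 SD, all of them levels per kilobase under the length of the longest transcript, a setting chosen after seeing the data. No paired analysis was possible because there is a single group. With 4 libraries and 1 that differs, the goodness of fit cannot separate a library from a condition, and 57 members were not tested, since the filter asks for about 10 counts in every library. Of these, 6 had a mean above that of the lowest tested member and failed on their low libraries.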
